A study of Mus musculus with 6 samples.

Results

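The Notch genes described here are 4 receptors (Notch1, Notch2, Notch3 and Notch4), 4 ligands (Jag1, Jag2, Dll1 and Dll4) and 2 target genes (Hey1 and Hes1), 10 genes of the 18193 with a named probe set. A probe set is a group of short probes on the array that together report 1 transcript. Every probe set whose only gene symbol was one of these 10 was taken, which gave 19 of the 45037 probe sets tested. The RNA came from callus, the repair tissue at a bone break, of mice lacking the vitamin D 24-hydroxylase, genotype Cyp24a1 (-/-), and of littermates with genotype Cyp24a1 (+/-), with 3 arrays in each group. All mice were 12 weeks old and of a C57BL6J x 129SV mixed background, and in all of them the tibia had been cut, stabilised with an intramedullary rod and left until day 14. The controls carry the disrupted allele too, so the comparison is of no working copy against 1 copy and not against wild type. The samples are titled by different bare numbers, and the labels do not say whether these are mice. Replicate numbers used here follow the order of the samples within each group and pair no null array with a heterozygous one. The p-values reflect the spread among these samples, which may be partly technical.

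Notch signalling passes between touching cells. A Jagged or Delta-like ligand on one cell binds a Notch receptor on its neighbour, proteases then cut the receptor, and the freed intracellular part enters the nucleus, where it joins the DNA-binding protein Rbpj and Mastermind-like coactivators and switches on repressor genes of the Hes and Hey families. In the skeleton the pathway is known for holding progenitor cells back from becoming osteoblasts, and in vessels for sprouting and for the coat of mural cells. The question put to these genes was whether any of them differed in callus when Cyp24a1, the enzyme that breaks down active vitamin D, was absent.

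Promoter sequences of 8 of the 10 genes were found in a RefSeq table on the build GRCm38.p6, in 9 windows because Dll1 has more than 1. The target genes Hes1 and Hey1 had no entry there. All counts of member windows below therefore cover receptors and ligands only. The 250 bases before the annotated start are shown for 3 genes, 5′ to 3′ on the gene's strand. Jag1 (chr2:137116521-137116770, minus strand) is shown because 2 of its probe sets had the lowest limma p-values among those of the 10 genes. Notch1 (chr2:26503823-26504072, minus strand) is shown as the receptor measured by 2 probe sets that both gave higher null means with near-equal differences. Notch4 (chr17:34564045-34564294, plus strand) is shown because the closest of many genes searched for a like pattern across arrays was Tie1, an endothelial gene. Capitals mark GGGCGG, the GC box bound by Sp-family factors, on either strand, with overlapping matches counted separately.
Jag1: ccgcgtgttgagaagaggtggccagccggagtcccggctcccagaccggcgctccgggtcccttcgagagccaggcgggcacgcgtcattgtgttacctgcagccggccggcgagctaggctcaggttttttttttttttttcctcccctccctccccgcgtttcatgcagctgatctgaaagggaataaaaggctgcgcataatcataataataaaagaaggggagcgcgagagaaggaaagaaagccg
Notch1: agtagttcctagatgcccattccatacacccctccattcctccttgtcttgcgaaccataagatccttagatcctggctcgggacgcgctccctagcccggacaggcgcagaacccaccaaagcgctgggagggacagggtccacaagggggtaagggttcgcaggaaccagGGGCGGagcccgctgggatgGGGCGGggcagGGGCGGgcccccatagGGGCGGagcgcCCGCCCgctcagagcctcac
Notch4: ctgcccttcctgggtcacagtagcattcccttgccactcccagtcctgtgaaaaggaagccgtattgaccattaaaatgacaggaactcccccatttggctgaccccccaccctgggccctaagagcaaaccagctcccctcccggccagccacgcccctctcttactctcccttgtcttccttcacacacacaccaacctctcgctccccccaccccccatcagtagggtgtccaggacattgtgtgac
The Notch1 window holds 5 GC boxes, and the windows of Jag1 and Notch4 hold 0. Among the 9 windows of the members, 5 hold at least 1 GC box, against 32.7% of all 32851 windows of this length. The member windows are also richer in G and C (56.0% to 87.2%) than the median of all windows (52.4%). The part of this composition in the count was not tested. The core letters of the Rbpj site, TGGGAA on either strand, occur in 0 of the 9 windows and in 21.6% of all windows. A vitamin D response element of the direct-repeat type occurs in 0 of the 9 and in 0.0396% of all windows. The letters CACNAG, the N-box bound by Hes proteins, occur in 4 of the 9 windows and in 36.7% of all. These are matches of letters in a short window and say nothing about binding.

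Values are log2 as deposited, with array medians from 4.55 to 4.59. Null replicate 1 and heterozygous replicate 3 had little signal of the neutrophil and erythroid marker genes, where the mean of the neutrophil list relative to the 6-array mean was -2.88 and -3.48, against 1.32 to 1.94 on the other 4 arrays. The erythroid list gave -2.88 and -2.51 there, against 0.78 to 1.72. The bone gene Col1a1 (13.57 to 14.28) and the osteoclast gene Ctsk (9.77 to 10.79) were present on every array. The lists of both cell types were lowest on null replicate 1, however. There the osteoclast list gave -0.74, against -0.07 to 0.41 on the other arrays. The osteoblast list gave -0.45, against -0.17 to 0.27. The hypertrophic cartilage gene Col10a1 gave 3.11, 4.44 and 7.71 on the null arrays and 7.79, 6.74 and 7.35 on the heterozygous arrays. Each group held 1 array with high Xist. On arrays that lack them, Xist and Y-linked transcripts gave values from 1.77 to 3.52, taken here as the range of silent transcripts. Cyp24a1 itself lay within or close to that range on all arrays, 2.71 to 3.65 on 1418866_at and 3.12 to 3.69 on 1418867_at, so it does not check the labels. In bulk callus, fewer cells of a type and less RNA per cell cannot be told apart.

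No Notch probe set passed limma's test after Benjamini-Hochberg adjustment over all probe sets (adjusted p = 0.999 for each of the 19), as 0% of all probe sets tested did. An unadjusted p under 0.05 was reached by 2 of the 19, both of Jag1 and both higher in null callus, against 3.69% of all probe sets in either direction (1.63% higher, 2.06% lower). The groups did not overlap for 2 of the 19, against 8.95% of all probe sets. One is a Jag1 probe set with higher null values (3.57% of all probe sets), and the other, with lower null values (5.38% of all), is a Notch4 probe set within the range of silent transcripts. The null mean was higher for 14 of the 19 (13 of the 16 with an array above the range of silent transcripts), with a median difference of 0.16, where all probe sets gave 48.0% higher and a median of -0.0081. With 1 probe set per gene, the one with the highest mean, the null mean was higher for 8 of the 10 genes with a median difference of 0.14, where all genes gave 49.7% higher and a median of -0.0017. Precision is limited by the number of arrays, and an exact permutation test of 3 against 3 arrays cannot go below p = 0.1.

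**Figure D1:**
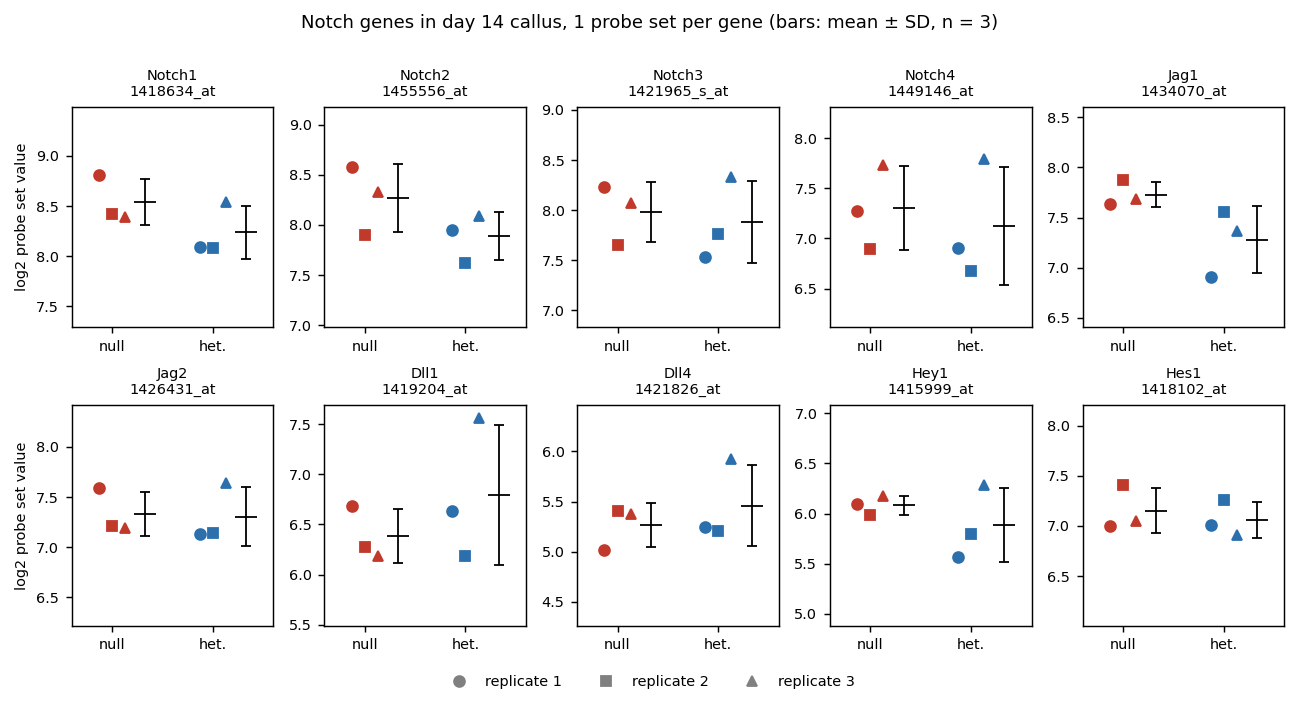
Log2 values of 1 probe set per Notch gene (the one with the highest mean) on the 3 null and 3 heterozygous arrays. Symbols give the replicate number, and a shared symbol does not pair arrays. The bar beside each group is its mean ± SD (n = 3), and every panel spans the same number of log2 units. Only for Jag1 among the 10 do the null values (7.63 to 7.87) lie above all heterozygous values (6.91 to 7.56), and Dll1 and Dll4 are highest on heterozygous replicate 3.

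The receptors come first. Notch1, the receptor studied most widely across tissues, was measured by 2 probe sets. On 1418634_at the null arrays gave 8.81, 8.43 and 8.39 and the heterozygous arrays 8.09, 8.08 and 8.54. The groups overlapped only through heterozygous replicate 3, which lay above null replicates 2 and 3. The means were 8.54 ± 0.23 and 8.24 ± 0.26 (SD, n = 3 each), a difference of 0.30 (SE 0.18) on the log2 scale or 1.23-fold, with a 95% interval from 0.909-fold to 1.67-fold. The second probe set, 1418633_at, gave 7.03, 6.70 and 6.84 with the null genotype and 6.28, 6.53 and 6.85 with the heterozygous one. That is a difference of 0.31 (SE 0.17), and here too heterozygous replicate 3 reached into the null values. Without that array the 2 differences were 0.45 on each probe set, and without null replicate 1 the first was 0.17.

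Notch2, the receptor whose gain of function in people causes a bone-loss syndrome, had the largest receptor difference. Probe set 1455556_at gave 8.58, 7.90 and 8.33 on the null arrays and 7.95, 7.62 and 8.09 on the heterozygous ones. Null replicate 2 lay below heterozygous replicates 1 and 3, so the groups overlapped. The difference was 0.38 (SE 0.21), 1.30-fold with an interval from 0.919-fold to 1.84-fold (limma adjusted p = 0.999). It was 0.23 without null replicate 1 and 0.56 without null replicate 2. The other Notch2 probe set, 1451889_at, read 3.22 to 3.45 on all 6 arrays, within the range of silent transcripts, and so gives no difference.

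Notch3, the receptor of smooth muscle cells and pericytes, spread more between arrays than between groups. On 1421965_s_at, whose suffix marks probes that may match more than 1 transcript, the null arrays gave 8.23, 7.65 and 8.07 and the heterozygous arrays 7.54, 7.77 and 8.33. The highest and the lowest of the 6 values were both heterozygous. The difference was 0.10 (SE 0.25). On 1421964_at the null arrays gave 7.61, 6.83 and 7.25 and the heterozygous arrays 6.59, 6.82 and 7.55, a difference of 0.24 (SE 0.30). On both probe sets the 2 highest arrays were null replicate 1 and heterozygous replicate 3, the arrays low in marrow genes.

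Notch4, which is largely a receptor of endothelial cells, had the widest spread of the receptors. Probe set 1449146_at gave 7.27, 6.90 and 7.74 with the null genotype and 6.91, 6.68 and 7.79 with the heterozygous one. Null replicate 3 and heterozygous replicate 3 were the highest of their groups, and the groups overlapped over nearly their whole range. The difference was 0.18 (SE 0.34), with an interval from -0.64 to 0.99, and it was 0.51 without heterozygous replicate 3 and -0.047 without heterozygous replicate 2. The other Notch4 probe sets, 1456263_at (2.67 to 3.01) and 1436901_at (2.73 to 3.19), lay within the range of silent transcripts on every array. On 1436901_at the groups did not overlap, with the heterozygous values higher, but values this low have no order.

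Among the ligands, Jag1, the Jagged ligand expressed widely in vessel wall, skeletal progenitors and epithelium, was the only gene with an unadjusted p under 0.05. Probe set 1434070_at gave 7.63, 7.87 and 7.69 on the null arrays and 6.91, 7.56 and 7.37 on the heterozygous arrays. All null values lay above all heterozygous ones, though null replicate 1 and heterozygous replicate 2 were close. The means were 7.73 ± 0.12 and 7.28 ± 0.33 (SD, n = 3 each), a difference of 0.45 (SE 0.18) or 1.37-fold, with a 95% interval from 1.005-fold to 1.86-fold. Limma's unadjusted p was 0.0473 and its adjusted p 0.999, and an exact two-sided permutation test gave p = 0.1, the smallest possible. The difference was 0.26 without heterozygous replicate 1 and 0.59 without heterozygous replicate 2.

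Jag1 had 2 further probe sets with lower readings, closer to the range of silent transcripts (up to 3.52). On 1421106_at the null arrays gave 4.55, 5.54 and 4.87 and the heterozygous arrays 3.69, 4.56 and 4.14. Null replicate 2 was the highest, and null replicate 1 lay just under heterozygous replicate 2, so the groups overlapped by a small margin. The difference was 0.85 (SE 0.32), 1.80-fold with an interval from 1.07-fold to 3.05-fold (limma unadjusted p = 0.0328, adjusted p = 0.999; two-sided exact permutation p = 0.2). It was 0.58 without null replicate 2 and 1.07 without null replicate 1 or heterozygous replicate 2. On 1421105_at the values were 4.19, 4.20 and 4.003 with the null genotype and 3.92, 3.90 and 4.03 with the heterozygous one, a difference of 0.18 (SE 0.11). All 3 probe sets of Jag1 thus had higher null means, and they share the same RNA samples, so they are not independent of each other.

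Jag2, the second Jagged ligand, gave near-equal means in the 2 groups. On 1426431_at the null arrays gave 7.59, 7.21 and 7.19 and the heterozygous arrays 7.13, 7.14 and 7.64. Null replicate 1 and heterozygous replicate 3 stood above the other 4 arrays, which lay within 7.13 to 7.21. The difference was 0.025 (SE 0.19), with an interval from 0.744-fold to 1.39-fold. On 1426430_at the values were 6.69, 6.52 and 6.72 with the null genotype and 6.69, 6.59 and 7.08 with the heterozygous one, a difference of -0.14 (SE 0.15), so the signs of the 2 probe sets disagree.

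Dll1, a Delta-like ligand known from segmentation and from muscle progenitors, had the largest difference in the other direction. Its 1 probe set, 1419204_at, gave 6.69, 6.28 and 6.19 with the null genotype and 6.64, 6.19 and 7.56 with the heterozygous one. Heterozygous replicate 3 stood apart from the other 5 arrays, which lay between 6.19 and 6.69. The difference was -0.41 (SE 0.35), with an interval from -1.25 to 0.43, and it was -0.027 without heterozygous replicate 3. Dll4, the Delta-like ligand of arterial and sprouting endothelium, was also highest on that array on 1421826_at, which gave 5.02, 5.41 and 5.38 with the null genotype and 5.25, 5.21 and 5.92 with the heterozygous one. The difference was -0.19 (SE 0.22) with all arrays, and 0.042 without heterozygous replicate 3. On 1421827_at, with 5.07, 5.35 and 5.22 with the null genotype and 4.98, 5.08 and 5.10 with the heterozygous one, it was 0.16 (SE 0.11), so the 2 Dll4 probe sets also disagree in sign.

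The target genes encode repressors of the helix-loop-helix class. Hey1, a target in endothelium and bone cells, gave 6.09, 5.98 and 6.17 on the null arrays and 5.57, 5.79 and 6.29 on the heterozygous arrays (1415999_at). The null values lay close together, within the wider spread of the heterozygous ones (SD 0.095 and 0.37). The difference was 0.20 (SE 0.19), or 1.15-fold with an interval from 0.832-fold to 1.59-fold, and it was 0.40 without heterozygous replicate 3 and 0.044 without heterozygous replicate 1. Hes1, the target shared by most cell types and a brake on its own transcription, gave 6.999, 7.41 and 7.05 with the null genotype and 7.01, 7.26 and 6.91 with the heterozygous one (1418102_at). Null replicate 2 and heterozygous replicate 2 were the highest of their groups. The difference was 0.092 (SE 0.16), with an interval from 0.821-fold to 1.38-fold.

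**Figure D2:**
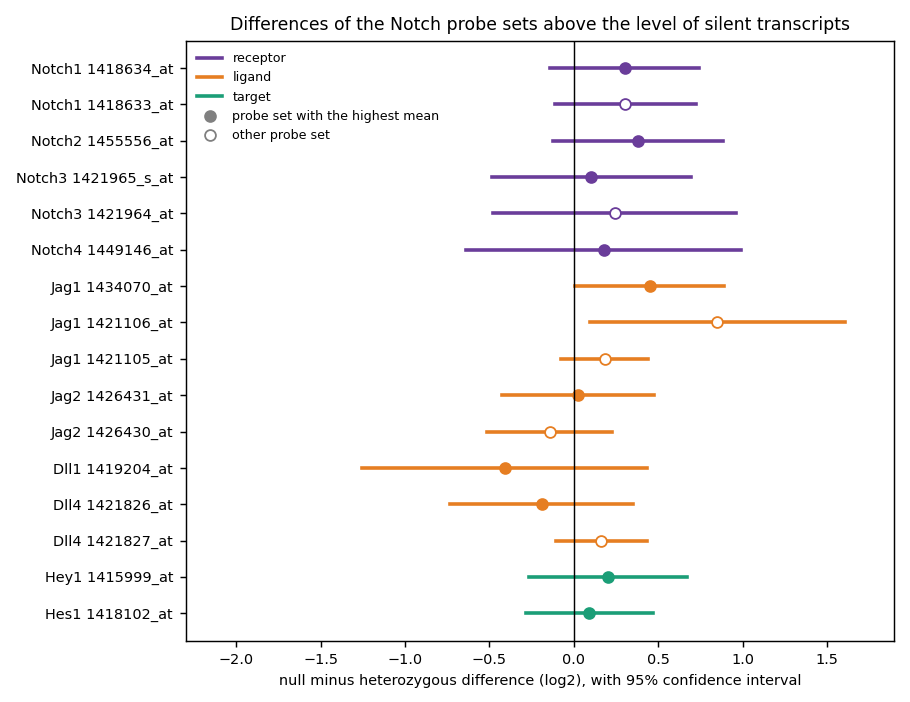
Null minus heterozygous difference in log2 (points) with limma's 95% confidence interval (lines) for the 16 Notch probe sets with at least 1 array above the range of silent transcripts, coloured by role; filled points are the probe set with the highest mean of each gene. The intervals of Jag1 1434070_at and 1421106_at lie above 0, those of the other 14 include 0, and no adjusted p passed.

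The members differed among themselves in which arrays were high. Of the 10 genes, 6 were highest on heterozygous replicate 3 (Notch3, Notch4, Jag2, Dll1, Dll4 and Hey1), an array on which 12.1% of all genes were highest. Notch1 and Notch2 were highest on null replicate 1, and Jag1 and Hes1 on null replicate 2. Heterozygous replicate 1 held the lowest value of 4 genes (Notch3, Jag1, Jag2 and Hey1), as of 10.9% of all genes. Heterozygous replicate 2 held that of 4 (Notch1, Notch2, Notch4 and, in a tie with null replicate 3, Dll1), as of 17.7% of all genes. The 2 arrays low in marrow genes were the 2 highest for 4 of the 10 genes (Notch1, Notch3, Jag2 and Dll1), as they were for 16.4% of all genes. For Hes1 alone among the 10 they were the 2 lowest, as they were for 3011 of all 18193 genes.

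Cell type markers moved with some of these values. Beside their counts, 49.7% of all genes had higher null means and 4.49% an unadjusted p under 0.05 in either direction. All 12 endothelial markers had higher null means, with a median difference of 0.26 and 0 at an unadjusted p under 0.05. The endothelial list mean was 0.06, 0.06 and 0.27 on the null arrays and -0.21, -0.35 and 0.17 on the heterozygous arrays. Heterozygous replicates 1 and 2 were thus lowest in this list, as in Notch1 and Hey1. The endothelial members did not share this order. For Notch4 1449146_at, null replicate 2 (6.90) lay below heterozygous replicate 1 (6.91), and Dll4 1421826_at was lowest on null replicate 1 (5.02). Within the list, Kdr and Vwf were lowest on heterozygous replicate 3 and Tek on null replicate 1. Smooth muscle and pericyte markers gave 0.12, 0.05 and 0.22 against -0.45, -0.12 and 0.18, with 8 of 10 higher in null callus and 1 at an unadjusted p under 0.05. Keratinocyte markers gave 1.20, 0.63 and -0.06 against -1.59, 0.52 and -0.70, with 8 of 9 higher and 1 at an unadjusted p under 0.05, and were lowest on heterozygous replicate 1, where Jag1 was lowest too. Macrophage markers gave 0.99, -0.43 and 0.34 against -0.34, -0.79 and 0.22, with 9 of 9 higher in null callus (median 0.50) and 2 at an unadjusted p under 0.05. Their order of arrays was that of Notch2 1455556_at, from null replicate 1 as the highest to heterozygous replicate 2 as the lowest. Of the satellite cell markers, 3 of 5 were higher in null callus, and the 1 at an unadjusted p under 0.05, Chrdl2, was lower there (-0.58). This list was highest on null replicate 1 (0.51) and heterozygous replicate 3 (0.63), the 2 arrays on which Dll1 was highest. For Dll1, null replicate 1 (6.69) lay close to heterozygous replicate 1 (6.64), where the list gave -0.03. Osteoblast markers went the other way, with 1 of 6 higher in null callus (median -0.44). There, 2 had an unadjusted p under 0.05, Ibsp and Alpl, both lower in null callus. The part of these cell types in the Notch values was not tested.

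**Figure D3:**
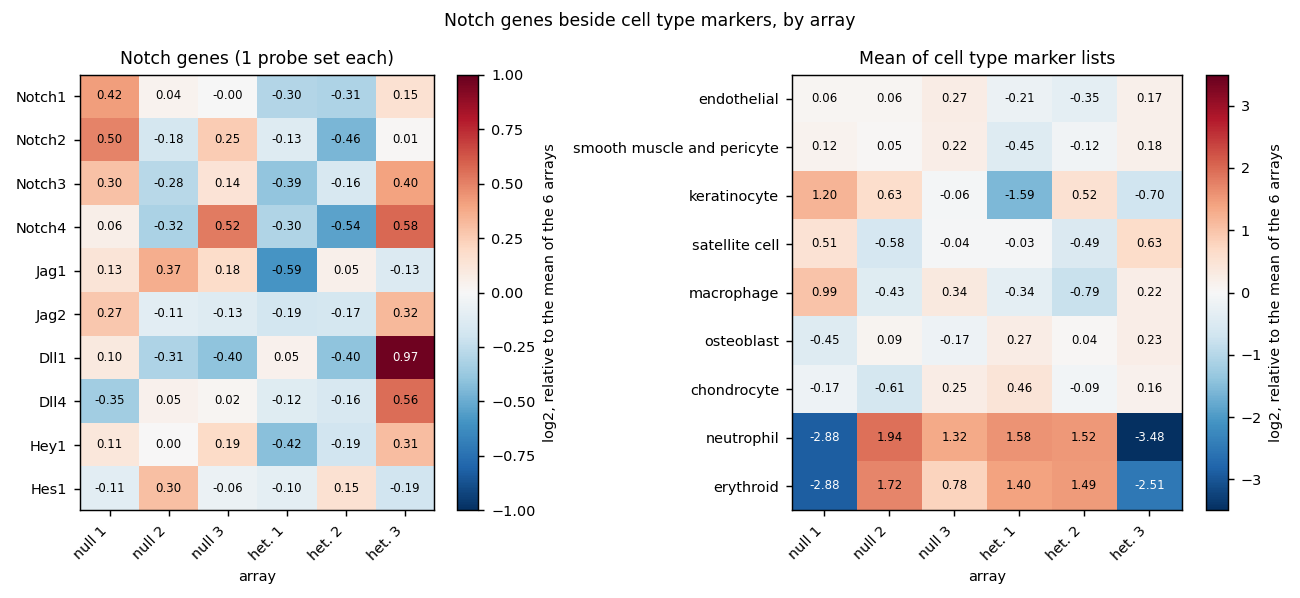
Log2 values relative to the mean of the 6 arrays, for 1 probe set per Notch gene (left) and for the mean of each cell type marker list (right; wider colour scale), by array. Dll1 on heterozygous replicate 3 (0.97) is the largest deviation among the Notch genes, and neutrophil and erythroid markers are low on null replicate 1 and heterozygous replicate 3.

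Likeness of pattern was measured for the 3 members with the largest spread over arrays, as the root mean square difference between centred log2 values over the 6 arrays among 11162 other genes. The genes closest to Notch4 were Tie1, a receptor kinase of endothelial cells (0.084), and Ppp1r9a (0.088), where the median gene was at 0.468. Tie1 gave 7.63, 7.30 and 7.99 with the null genotype and 7.21, 6.87 and 7.96 with the heterozygous one, with the same 3 highest arrays and the same lowest array as Notch4. The genes closest to Dll1 were Lrba (0.062) and Slc5a6 (0.067), and those closest to Notch2 were Cyth3 (0.045) and Man2a1 (0.047). With so many genes and 6 arrays, close matches arise readily, and these are descriptions only.

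Counts of the members were also taken with the marrow difference between arrays treated otherwise. Without null replicate 1 and heterozygous replicate 3, 3 of the 19 probe sets had an unadjusted p under 0.05, against 7.67% of all probe sets. They were Jag1 1421106_at (1.07), Hey1 (0.40) and Notch1 1418634_at (0.32), all higher in null callus (limma adjusted p = 0.644 for each). In that setting 11 of the 19 did not overlap between 2 and 2 arrays, against 39.4% of all probe sets. With a marrow score as a covariate, 5 of the 19 had an unadjusted p under 0.05, against 7.82% of all probe sets: both Notch1 probe sets, Notch2 1455556_at, and Jag1 1434070_at and 1421106_at, all higher in null callus. The lowest adjusted p of a member was then 0.617. The differences themselves moved little under the covariate, as for Notch1 1418634_at (0.31) and Jag1 1434070_at (0.45). The score was low on 1 array of each group, null replicate 1 and heterozygous replicate 3, so its group means were nearly equal. A covariate so balanced between the groups can hardly move a group difference. The part of marrow content in the differences was therefore not tested by this fit.

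**Figure D4:**
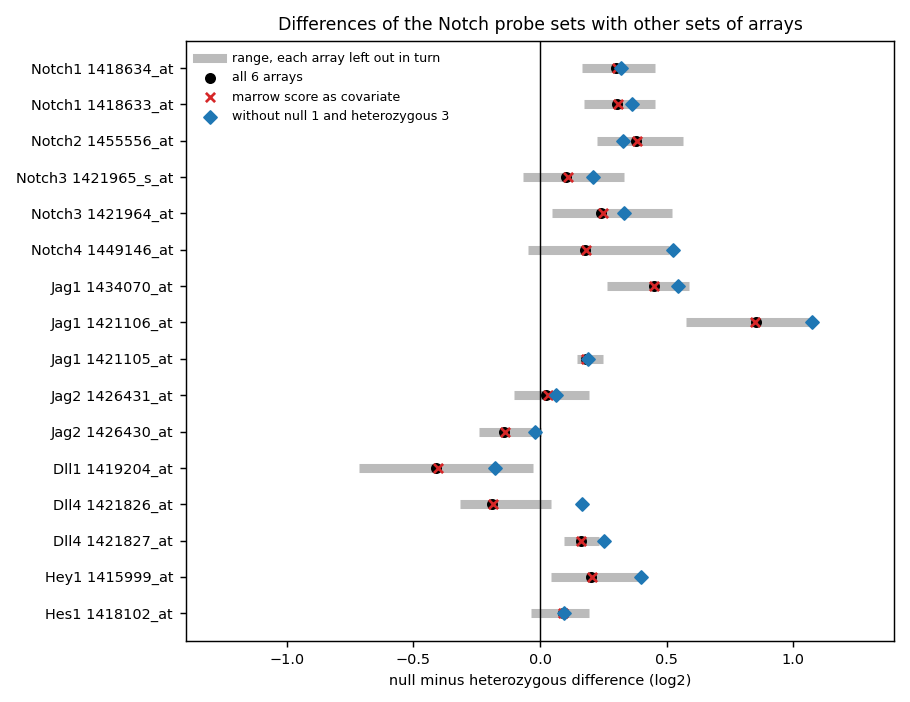
Null minus heterozygous difference in log2 for the 16 Notch probe sets above the range of silent transcripts, with all arrays (black), with the marrow score as covariate (red crosses), without null replicate 1 and heterozygous replicate 3 (blue) and as the range over leaving out each array in turn (grey). For 9 of the 16 the range lies above 0 (both Notch1 probe sets, Notch2, Notch3 1421964_at, all 3 of Jag1, Dll4 1421827_at and Hey1), while Dll4 1421826_at moves from -0.19 to 0.17 without the 2 arrays.

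Other genes of the pathway were taken from a list of 58, and 53 of them had a probe set with 1 symbol. The list holds further ligands, Hes and Hey genes, the nuclear complex, the enzymes that add sugars to the receptors, the proteases that cut them, and the endocytic and ubiquitin machinery. The null mean was higher for 28 of the 48 genes with at least 1 array above the range of silent transcripts. Over all 53 it was higher for 32, with a median difference of 0.05, against 49.7% of all genes. None passed limma's test after adjustment (adjusted p = 0.999 for each of the 53), and 4 had an unadjusted p under 0.05, 3 higher and 1 lower in null callus, against 4.49% of all genes. The groups did not overlap for 5 of the 53, against 10.1% of all genes.

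Rbpj, the DNA-binding partner of every Notch receptor, was among those 4. Probe set 1454896_at gave 8.61, 8.30 and 8.71 on the null arrays and 8.19, 8.13 and 8.13 on the heterozygous arrays. The heterozygous values lay close together and below all null values. The difference was 0.39 (SE 0.13), or 1.31-fold with an interval from 1.05-fold to 1.63-fold (limma unadjusted p = 0.0229, adjusted p = 0.999), and all 3 Rbpj probe sets had higher null means. Leaving out single arrays gave 0.31 to 0.51.

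Neurl1a, a ubiquitin ligase that promotes uptake of Notch ligands, had the largest difference of the list below 0. Probe set 1460343_at gave 8.74, 9.15 and 8.88 with the null genotype and 9.72, 10.01 and 9.23 with the heterozygous one, without overlap. The difference was -0.73 (SE 0.22), 1.66-fold higher in heterozygous callus (limma unadjusted p = 0.0139, adjusted p = 0.999), and the 5 of its 6 probe sets above the range of silent transcripts had the same sign. The remaining 2 of the 4 are Cntn1 and Dner, cell-surface proteins of neurons proposed as non-classical ligands. Cntn1 gave 3.76, 3.82 and 3.58 with the null genotype and 3.48, 3.31 and 3.29 with the heterozygous one, so that all heterozygous values lay within the range of silent transcripts. Dner lay within that range on all 6 arrays (2.73 to 3.47).

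The feedback and target genes of the list did not separate the groups. Nrarp, a target that limits Notch signalling, gave 6.85, 7.01 and 6.97 with the null genotype and 6.26, 6.38 and 7.10 with the heterozygous one, where heterozygous replicate 3 was the highest of the 6 and the other 2 heterozygous arrays the lowest. Its difference was 0.36 (SE 0.23), and 0.62 without heterozygous replicate 3. Heyl, a target of mural cells, had a difference of 0.34 (SE 0.35) on 1419302_at and was highest on null replicate 1 (7.66) and heterozygous replicate 3 (7.38). On its other probe sets, 1419303_at and 1438886_at, the differences were 0.12 and 0.001, and heterozygous replicate 3 was the highest array. Of the 8 Hes, Hey and Nrarp genes in the list, Hes2 and Hey2 lay within the range of silent transcripts on all arrays. Of the other 6, 2 had higher and 4 lower null means, the latter including Hes3, above that range on 1 array only. An unadjusted p under 0.05 in limma was reached by 0 of the 8.

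Among the rest, the ligand-like gene Dlk1 had the widest spread, from 4.94 to 8.41 over the arrays, with a difference of 0.80 (SE 0.99). It was highest on null replicate 1 and next on heterozygous replicate 3 (7.82), again the arrays low in marrow genes. The second Dlk1 probe set, 1442724_at, lay near the range of silent transcripts (3.10 to 3.70), with a difference of -0.18. The 6 glycosylation and processing genes, among them the fringe enzymes Lfng, Mfng and Rfng, had differences from -0.06 to 0.19. The 7 proteases and their partners ran from -0.29 (Psenen, a subunit of gamma-secretase) to 0.32 (Psen2, its catalytic subunit). Neither group held a gene with an unadjusted p under 0.05. A second Psen2 probe set, 1431542_at, had a difference of -0.13. Of the 14 genes of the nuclear complex, 13 had at least 1 array above the range of silent transcripts, and 8 of these had higher null means. Null means were also higher for 7 of the 13 endocytic and ubiquitin genes.

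**Figure D5:**
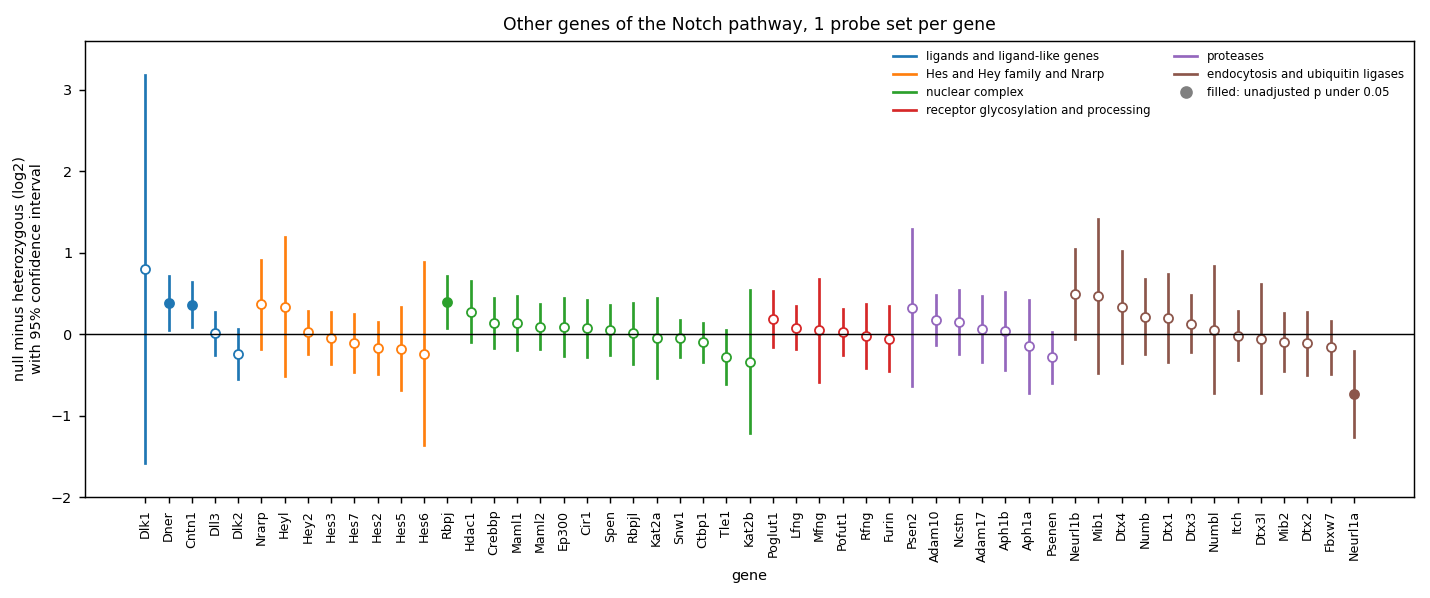
Null minus heterozygous difference in log2 (points) with limma's 95% confidence interval (lines) for the 53 other genes of the Notch pathway, 1 probe set per gene, coloured by role; filled points have an unadjusted p under 0.05. The filled points are Dner, Cntn1 and Rbpj above 0 and Neurl1a below 0, and none passed after adjustment.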

How the data were processed

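Total RNA of callus was labelled with biotin and run on Affymetrix Mouse 430_2 arrays, per the labels' protocols. The authors deposited 1 value per probe set and array, whose range fits log2; the software and the background, summary and normalisation methods were not given in the sources used here. Columns have nearly equal distributions, so a change common to all genes would not be seen, and low values lie near a floor that shrinks differences.

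Of 45101 probe sets, 64 controls were left out. Symbols came from the platform annotation, and only probe sets with 1 symbol were named. The deposited log2 values were fitted with limma 3.58.1 under R 4.3.3 (lmFit, eBayes, group means, two-sided, no covariate, Benjamini-Hochberg over 45037 probe sets, threshold 0.05), with null minus heterozygous as the direction. Residual degrees of freedom were 4, and SEs had a median of 0.15. The fit was tested on simulated data. The main probe set of a gene has the highest mean over the 6 arrays. Named were all member probe sets, pathway genes at an unadjusted p under 0.05, and ligand-like, Hes, Hey, fringe, Rbpj and Nrarp genes; Psenen and Psen2, the extremes of their group, were chosen after their values were seen, as was the range of silent transcripts. The marrow score is the mean of neutrophil and erythroid markers. Alternatives were 3 normalisations, array weights, a robust prior with intensity trend, a level filter, 1 probe set per gene, the marrow covariate, a test without eBayes, other thresholds, and leaving out arrays. Members and lists were chosen with earlier results of these data known. Of 13 marker lists, those not described above had median differences of 0.03 (B cell), -0.06 (skeletal muscle), -0.08 (chondrocyte), -0.19 (osteoclast) and -0.0021 (adipocyte).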

Additional observations from a re-analysis of the deposited data

How the results depend on the processing

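No member probe set passed after adjustment under any alternative, including thresholds of 0.1 and 0.25 (lowest adjusted p 0.462, with array weights). The 2 member probe sets at an unadjusted p under 0.05 (3.69% of all probe sets) became 1 with quantile normalisation, cyclic loess or centring on medians (3.61% to 3.84% of all), 0 with the level filter (3.31%), with 1 probe set per gene (4.24%) or without eBayes (4.31%), 3 with array weights (10.3%), 5 with the marrow covariate (7.82%), 3 without both arrays low in marrow genes (7.67%), and 0 (without null replicate 3) to 3 (without heterozygous replicate 3) on leaving out single arrays (2.33% to 6.04%). The 2 without overlap (8.95% of all) became 3 with cyclic loess (8.87%), 1 with the level filter (8.76%) or 1 probe set per gene (10.1%), 11 without both arrays low in marrow genes (39.4%), and 3 to 8 (without heterozygous replicate 3) on leaving out single arrays (15.5% to 24.0%). The 4 pathway genes (4.49% of all genes) became 8 with array weights (12.1%), 2 with the level filter (3.88%), 9 with the marrow covariate (10.1%) or without both arrays (9.52%), and 1 (without heterozygous replicate 2) to 8 (without null replicate 1) on leaving out single arrays (2.81% to 7.77%). Of 248 recomputed member differences 13 changed sign, in 6 of 16 probe sets: Jag2 1426431_at (-0.0033 with quantile normalisation; -0.10 to 0.19 on leaving out single arrays), Dll4 1421826_at (0.0042 with array weights, 0.17 without both arrays; -0.32 to 0.042), Notch3 1421965_s_at (-0.067 to 0.33), Notch4 1449146_at (-0.047 to 0.51), Jag2 1426430_at (-0.24 to 0.0020) and Hes1 1418102_at (-0.035 to 0.19). The causes were not tested. The differences of 6 pathway genes were recomputed on the main probe set of each, as an addition after the data were seen. They kept their sign in each alternative run. Leaving out single arrays gave 0.31 to 0.51 for Rbpj, -0.94 to -0.55 for Neurl1a and 0.31 to 0.43 for Cntn1. It gave 0.20 to 0.62 for Nrarp, 0.05 to 0.66 for Heyl and 0.10 to 1.68 for Dlk1. No paired analysis was possible because the labels give no replicate numbers or litters. Signal within the silent range limits 3 probe sets of Notch2 and Notch4. Jag1 1421106_at (3.69 on heterozygous replicate 1) and 1421105_at (3.90 on heterozygous replicate 2) also came close to it.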
